A study of Homo sapiens with 6 samples.

Results

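Myosins and kinesins are the motor proteins that walk along actin filaments and microtubules. The genes described here are the 82 whose symbols begin with MYO, MYH, KIF or KIFC followed by a digit, 42 kinesins and 40 myosins, out of 28265 genes in the deposited tables; 6 antisense symbols that share these names were left out. Expression was measured by RNA-seq of total RNA in LN229, an established human glioblastoma cell line grown in serum-containing medium. The libraries fell into 2 groups, 3 libraries labelled TRIM25 knockdown, which the study's design describes as carrying a short hairpin RNA against TRIM25 (shTRIM25), and 3 libraries labelled WT, whose titles carry the unexplained letters NC. TRIM25 is a ubiquitin ligase. The labels do not say which hairpin sequence was used, whether each line was a clone or a pool, whether the WT-labelled cells carried a control hairpin, or whether libraries with the same label are separate cultures. The p-values below therefore measure only the spread between these libraries, which may be technical.

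The targeted gene went against the label. TRIM25 had 964, 905 and 1443 counts in the libraries labelled TRIM25 knockdown, against 561, 493 and 563 counts in the libraries labelled WT. Scaled to normalized library size, this was 82.9 ± 4.84 counts per 1000000 (CPM) in the libraries labelled knockdown and 35.6 ± 0.243 CPM in those labelled WT (SD, n = 3 each). TRIM25 was thus 2.34-fold higher under the knockdown label (log2 fold change 1.22 ± 0.07 SE, edgeR quasi-likelihood test with Benjamini-Hochberg adjustment, adjusted p = 3.23e-09). Every direction below is therefore that of the libraries labelled TRIM25 knockdown relative to those labelled WT, and not of a measured loss of TRIM25. Total counts ranged from 11349865 to 16404725 in the libraries labelled knockdown and from 13763400 to 15868470 in those labelled WT. The glioma-associated genes VIM, NES, CD44, EGFR, S100B, SOX2 and OLIG2 were detected; SOX2 (log2 fold change -0.66), OLIG2 (-0.67) and S100B (-0.33) were called lower and NES (0.27) higher in the libraries labelled knockdown (edgeR), while the astrocyte filament gene GFAP did not exceed 8 counts in any library. Of 9 markers of other cell types 7 were near 0 and not tested. Among these the leukocyte gene PTPRC had 9 counts at most and CDH1 14. VWF had 8 to 31 counts per library and was not called. The lysosomal gene CD68 averaged 63.3 ± 7.18 CPM in the libraries labelled knockdown and 44.9 ± 1.09 CPM in those labelled WT (SD, n = 3 each). CD68 was called higher (log2 fold change 0.49, adjusted p = 0.000299, edgeR), a call kept without each library in turn.

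Kinesins use ATP to move along microtubules, most of them towards the plus end. The mitotic kinesins build the spindle, move and depolymerise its microtubules and organise the midzone and midbody at cell division, whereas the cargo kinesins carry vesicles, mitochondria and protein complexes through the cytoplasm. Myosins pull on actin: class II myosins form contractile filaments with their light chains, and the unconventional classes link membranes and organelles to actin. Most mitotic kinesins are made in late cell cycle, and many late cell cycle promoters carry a cell cycle genes homology region (CHR), read by the MuvB complexes, a few helical turns from CCAAT boxes bound by NF-Y.

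The letters of these elements were counted in the promoters of the motors, as a description without a test. RefSeq promoter windows (build GRCh38.p14, 250 bases before to 50 bases after the transcript start) were matched for 66 of the 82 genes. The CHR letters TTTGAA, searched on both strands, were present in at least 1 window of 10 of 15 mitotic kinesins (66.7%), 1 of 11 cargo kinesins (9.09%) and 4 of 32 myosins (12.5%), against 18.2% of all 27305 genes in the promoter table. With the variant TTTAAA allowed, 12 of 15 mitotic kinesins (80%) and 2 of 11 cargo kinesins (18.2%) had a match, against 27.9% of all genes. CCAAT, also searched on both strands, was present in 11 of 15 mitotic kinesins (73.3%) and 4 of 11 cargo kinesins (36.4%), against 39.7% of all genes. Neighbouring matches of different motifs can share end bases, and a match describes letters in the window, not a bound site.

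The windows below run from 140 bases before to 10 bases after the transcript start, 5′ to 3′ on the gene's strand, and are shown because they hold the 4 mitotic kinesins that passed the test, 2 that did not and, for contrast, the 2 most abundant cargo kinesins. Capitals mark the 3 motifs just named, or their reverse complements. KIF14 lies at chr1:200620742-200620891 (minus strand), KIF15 at chr3:44761654-44761803 (plus), KIF20B at chr10:89701450-89701599 (plus), KIF20A at chr5:138178972-138179121 (plus), KIF11 at chr10:92592990-92593139 (plus), KIF23 at chr15:69414209-69414358 (plus), KIF3B at chr20:32277511-32277660 (plus) and KIF5B at chr10:32056416-32056565 (minus), all in GRCh38.p14.
KIF14: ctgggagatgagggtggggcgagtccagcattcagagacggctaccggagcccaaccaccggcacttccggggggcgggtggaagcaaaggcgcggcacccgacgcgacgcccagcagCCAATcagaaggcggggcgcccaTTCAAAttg
KIF15: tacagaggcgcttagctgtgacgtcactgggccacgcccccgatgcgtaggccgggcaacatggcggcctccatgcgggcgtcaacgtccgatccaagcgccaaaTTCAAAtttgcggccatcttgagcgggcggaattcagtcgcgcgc
KIF20B: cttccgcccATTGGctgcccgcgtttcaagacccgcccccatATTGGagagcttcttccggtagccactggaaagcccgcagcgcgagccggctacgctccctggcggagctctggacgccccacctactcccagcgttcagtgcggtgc
KIF20A: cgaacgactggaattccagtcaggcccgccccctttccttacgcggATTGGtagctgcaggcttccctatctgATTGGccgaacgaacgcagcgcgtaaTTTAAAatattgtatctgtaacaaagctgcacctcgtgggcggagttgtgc
KIF11: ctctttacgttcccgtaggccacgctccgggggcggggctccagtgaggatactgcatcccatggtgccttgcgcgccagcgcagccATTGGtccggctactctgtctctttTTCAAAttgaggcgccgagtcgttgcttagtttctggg
KIF23: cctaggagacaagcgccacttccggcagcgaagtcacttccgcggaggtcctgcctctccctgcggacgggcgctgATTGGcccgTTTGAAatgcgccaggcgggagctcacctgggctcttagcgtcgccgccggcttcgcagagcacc
KIF3B: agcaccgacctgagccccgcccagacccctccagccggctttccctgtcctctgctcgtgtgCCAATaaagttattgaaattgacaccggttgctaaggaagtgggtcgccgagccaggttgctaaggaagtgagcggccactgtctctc
KIF5B: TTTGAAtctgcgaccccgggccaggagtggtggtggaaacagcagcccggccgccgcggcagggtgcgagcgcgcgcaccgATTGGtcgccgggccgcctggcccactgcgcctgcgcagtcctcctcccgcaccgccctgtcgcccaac
In KIF11 the CCAAT box began 53 bases and the CHR letters 28 bases before the transcript start, and in KIF23 they began 64 and 55 bases before it. KIF20A, the mitotic kinesin that fell, held 2 CCAAT boxes and the TTTAAA variant, and KIF14, which rose, held both motifs, the CHR letters just after the start. The 2 CHR matches of KIF20B lie 25 to 36 bases after the start, outside the stretch printed. In KIF5B the TTTGAA match opens the printed stretch, 140 bases before the start. Promoters with these letters thus occurred among kinesins that were higher, lower and not called.

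**Figure D1:**
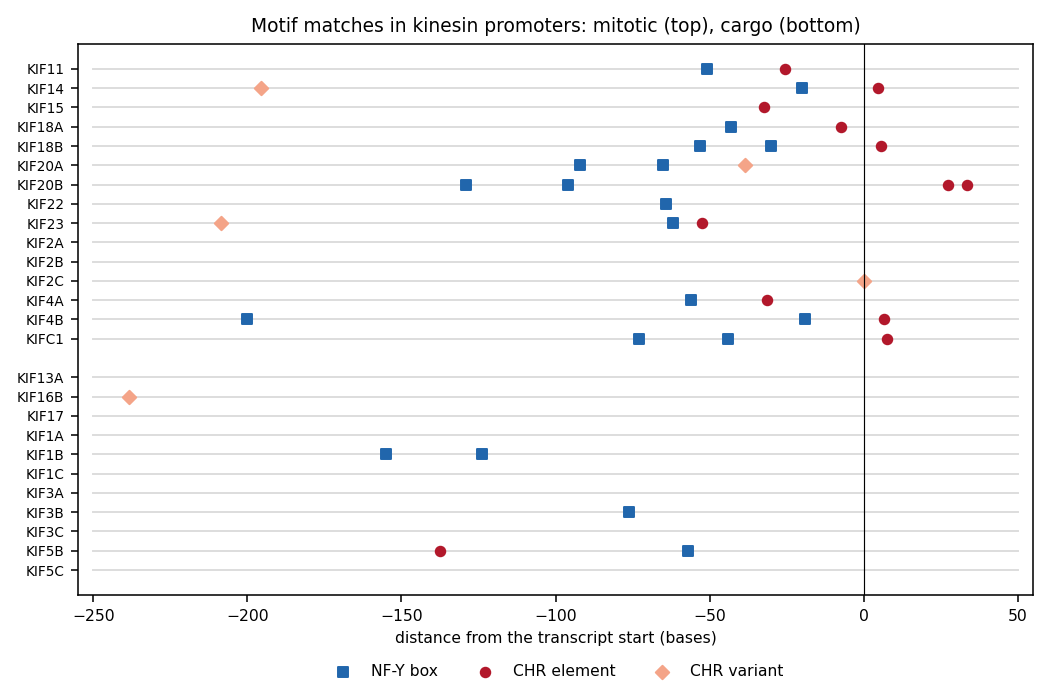
Positions of CHR letters (circles), the CHR variant (diamonds) and CCAAT boxes (squares) in the first RefSeq promoter window of each matched mitotic kinesin (top) and cargo kinesin (bottom), against distance from the transcript start in bases. Most mitotic kinesin windows carry a CHR match close to the start, and among the cargo kinesins shown KIF5B alone has the TTTGAA letters, far upstream.

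Levels per length were read from the deposited TPM, which scale length-corrected counts to 1000000 per library. MYH9, the heavy chain of non-muscle myosin IIA, was the most abundant motor, at 493 ± 19.97 TPM in the libraries labelled knockdown and 386 ± 30.6 TPM in those labelled WT (SD, n = 3 each). Among kinesins the midzone motor KIF20A had 140 ± 8.05 TPM in the libraries labelled knockdown and 163 ± 4.52 TPM in those labelled WT. KIF5B, the ubiquitous heavy chain of conventional kinesin, had 148 ± 15.4 TPM in the libraries labelled knockdown and 134 ± 2.65 TPM in those labelled WT. The class I myosin MYO1C stood at 138 ± 4.63 TPM in the libraries labelled knockdown and 135 ± 2.46 TPM in those labelled WT. In the libraries labelled knockdown these 3 genes lay within their spread of each other, and in those labelled WT KIF20A stood above KIF5B and MYO1C by more than their spread. The 82 genes summed to 2415 ± 136 TPM in the libraries labelled knockdown and 2174 ± 102 TPM in those labelled WT, and the groups overlapped at their edges, the lowest knockdown-labelled and the highest WT-labelled library both standing at 2289 TPM.

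**Figure D2:**
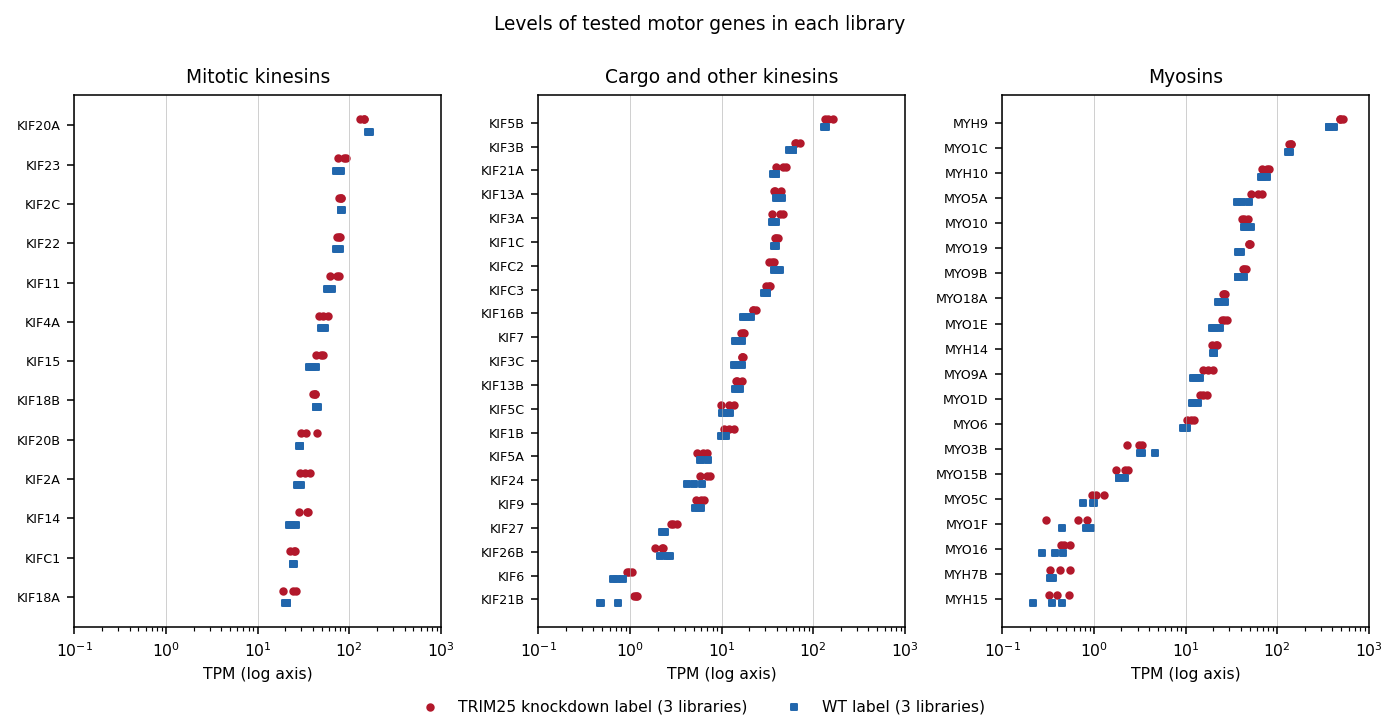
Deposited TPM (log axis) of the tested motor genes described here in each of the 3 libraries labelled TRIM25 knockdown (circles) and the 3 labelled WT (squares), in panels for mitotic kinesins, cargo and other kinesins, and myosins. Mitotic kinesins span about an order of magnitude, myosins more than 3 orders, with MYH9 at 493 TPM in the libraries labelled knockdown and 386 TPM in those labelled WT.

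Of the 82 genes, 55 had enough counts to be tested, 34 kinesins and 21 myosins. A gene was called at an adjusted p under 0.05 over all 14315 tested genes, of which 23.3% were called, 12.2% higher and 11% lower. Among the 55 tested motors 13 were called, 23.6%, with 11 higher and 2 lower under the knockdown label. The share called was thus close to that of all tested genes. The median log2 fold change was 0.11 for the 55 motors and -0.0038 for all tested genes, and 39 of the 55 were positive. The 3 libraries labelled knockdown all lay above the 3 labelled WT for 16 motors and all below for 3; of all tested genes 37.3% did not overlap, 18.3% above and 19% below. Without knockdown-labelled replicate 1 the count of called motors was 23 (21 higher, 2 lower), against 34.3% of all tested genes, and without WT-labelled replicate 2 or replicate 3 it was 7 each time (6 higher, 1 lower), against 12.7% and 13% of all tested genes. Without knockdown-labelled replicate 2 or 3 or WT-labelled replicate 1, 12.8%, 16.6% and 21.7% of all tested genes were called, and 9, 9 and 13 motors.

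Motor genes are long, and fold changes in these libraries moved with gene length. The median length was 6450 bp for the 55 tested motors, against 3592 bp for all tested genes, and 50 of the 55 were longer than that value. Across 13890 tested genes, which are not independent replicates, the log2 fold change had a Spearman correlation of 0.302 with length and -0.262 with GC content. The same trend separated libraries of one label: deviations from the group mean had a correlation with length of -0.394, 0.0753 and 0.392 in knockdown-labelled replicates 1, 2 and 3 and of 0.428, -0.12 and -0.377 in WT-labelled replicates 1, 2 and 3. Over the 55 motors, the correlation of the fold change was 0.32 for length and -0.43 for GC content. A second fit with per-library length and GC offsets called 32.4% of all tested genes (18% higher, 14.4% lower) and 16 motors, 11 higher and 5 lower, of which 11 were also called without offsets. Its values are given below as the offset fit, and the median of the 55 motors there was 0.06.

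**Figure D3:**
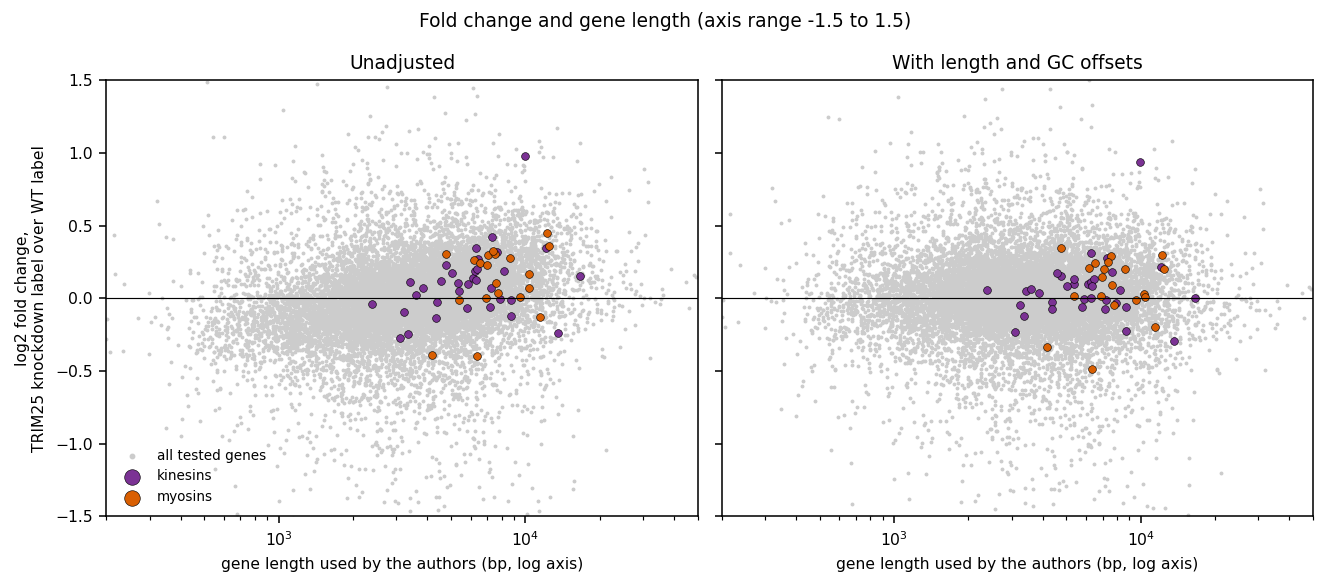
Log2 fold change of the libraries labelled TRIM25 knockdown over those labelled WT against gene length in bp (log axis), without offsets (left) and with length and GC offsets (right); grey points are all tested genes, coloured points kinesins and myosins. Most motors sit to the right of the grey cloud's centre, and their median log2 fold change is 0.11 on the left and 0.06 on the right.

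Of the 15 mitotic kinesins 13 were tested, and in the libraries labelled knockdown 3 were higher, 1 was lower and 9 were not called. Of the 13, 30.8% were called, against 23.3% of all tested genes (12.2% higher, 11% lower). The median log2 fold change of the 13 was 0.07, with a range of -0.27 to 0.42. KIF14, which acts with citron kinase at the midbody, had 74.2, 88.5 and 88.5 CPM in the libraries labelled knockdown, against 67.4, 61.9 and 58.6 CPM in those labelled WT. The groups did not overlap, and KIF14 rose by 0.42 ± 0.08 SE on the log2 scale (adjusted p = 0.00103, edgeR; 0.28 in the offset fit, adjusted p = 9.21e-05). In these bulk libraries a larger share of cells in a given cell cycle stage and more RNA per cell cannot be told apart.

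KIF20A, also called MKLP2, which brings the chromosomal passenger complex to the spindle midzone, moved the other way. It had 145, 156 and 151 CPM in the libraries labelled knockdown, against 181, 186 and 179.5 CPM in those labelled WT. All 3 knockdown-labelled libraries were below all WT-labelled ones, and KIF20A fell by 0.27 on the log2 scale (SE 0.06, adjusted p = 0.00241, edgeR; -0.23 in the offset fit, adjusted p = 5.38e-05). Its exons share 132 and 68 bases with BRD8 and CDC23 on the opposite strand, whose log2 fold changes were -0.02 and 0.06. KIF14 and KIF20A kept their calls without each library in turn.

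KIF15 and KIF20B were called on less. KIF15, a spindle motor that can stand in for KIF11, had 74.0, 81.7 and 84.0 CPM in the libraries labelled knockdown, against 73.1, 67.5 and 64.3 CPM in those labelled WT. Its log2 fold change was 0.23 ± 0.07 SE (adjusted p = 0.0300, edgeR; 0.15 in the offset fit, adjusted p = 0.0145), and the gap between the groups was under 1 CPM. The call was lost without knockdown-labelled replicate 2 or 3 (adjusted p = 0.124 and 0.103, edgeR) and without WT-labelled replicate 2 or 3 (adjusted p = 0.118 and 0.148). KIF20B, a kinesin of late cytokinesis, had 68.7, 75.1 and 96.7 CPM in the libraries labelled knockdown, against 66.0, 65.9 and 68.3 CPM in those labelled WT. Knockdown-labelled replicate 3 stood above the rest: the log2 fold change of 0.27 ± 0.10 SE (adjusted p = 0.0471, edgeR) was 0.10 without it (adjusted p = 0.346). The call was also lost without knockdown-labelled replicate 2 (adjusted p = 0.0710, edgeR), without WT-labelled replicate 1, 2 or 3 (0.106, 0.147 and 0.0826), with DESeq2 (0.0513), with limma-voom (0.0573) and in the offset fit (0.14, adjusted p = 0.0766).

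The abundant mitotic kinesins KIF23, KIF2C and KIF22 were not called. For KIF23, the midzone motor of the centralspindlin complex, the value was 0.07 on the log2 scale, with a 95% interval from -0.07 to 0.21. For the microtubule depolymerase KIF2C it was -0.09 (-0.23 to 0.04), and for the chromosome arm motor KIF22 it was -0.04 (-0.19 to 0.12). KIF11, the tetrameric motor that separates spindle poles, had 111, 127 and 132 CPM in the libraries labelled knockdown, against 114, 105 and 109 CPM in those labelled WT (log2 fold change 0.17, adjusted p = 0.0828, edgeR). KIF4A is nearly identical to its retrocopy KIF4B, which had 3 counts in WT-labelled replicate 2 and 0 elsewhere, so the split between them is uncertain. Summed over the 15 genes, mitotic kinesins stood at 742 ± 48.5 TPM in the libraries labelled knockdown and 720 ± 16.7 TPM in those labelled WT (SD, n = 3 each).

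Among the 13 tested mitotic kinesins the log2 fold change followed base composition: its Spearman correlation was -0.84 with GC content and 0.65 with length, and -0.73 and 0.51 in the offset fit. These 13 points share the same 6 libraries, and the part of base composition in the mitotic calls was not tested further. The correlation with GC content was -0.58 for tested cargo kinesins and -0.41 for tested myosins, and -0.18 and -0.15 in the offset fit. Without knockdown-labelled replicate 1 there were 7 called mitotic kinesins (6 higher, 1 lower), where 34.3% of all tested genes were called. Without knockdown-labelled replicate 2 or 3 or WT-labelled replicate 2 or 3 there were 2 (1 higher, 1 lower). In the latter fits 12.8%, 16.6%, 12.7% and 13% of all tested genes were called.

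Genes that mark dividing cells were called in both directions. Of 12 proliferation markers, all tested, 2 were higher and 2 lower, 33.3% called against 23.3% of all tested genes. Their median log2 fold change was -0.04. Their summed level was 1875 ± 56.8 TPM in the libraries labelled knockdown and 1864 ± 29.8 TPM in those labelled WT. The 4 calls became 1 without knockdown-labelled replicate 2, 2 without knockdown-labelled replicate 3, 0 without WT-labelled replicate 2 and 1 without WT-labelled replicate 3. In these fits 12.8%, 16.6%, 12.7% and 13% of all tested genes were called. Of 15 spindle partner genes 2 were higher and 3 lower, 33.3% called against 23.3% of all tested genes. BIRC5, a spindle partner, is the survivin subunit of the chromosomal passenger complex that travels with KIF20A. It had 179.5, 175 and 176 CPM in the libraries labelled knockdown, against 210.0, 227 and 219 CPM in those labelled WT. Its log2 fold change was -0.31 ± 0.06 SE (adjusted p = 0.000899, edgeR), and the call was kept without each library in turn. The other passenger complex genes of the list did not all move with it. INCENP was called higher (0.22, adjusted p = 0.0135, edgeR), a call not kept in every leave-one-out fit. AURKB (-0.11, adjusted p = 0.332, edgeR) and CDCA8 (-0.10, adjusted p = 0.286, edgeR) were not called.

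Of the 15 cargo kinesins 13 were tested, 0 were higher and 1 was lower, 7.69% called against 23.3% of all tested genes. The median log2 fold change of the 13 was 0.07, with a range of -0.25 to 0.19. DESeq2 and limma-voom also called 0 higher, where they called 1397 and 1746 of all tested genes higher. At an unadjusted p under 0.05 edgeR put 2 of the 13 higher, against 2601 of all 14315 tested genes. The medians were thus close for mitotic (0.074) and cargo (0.069) kinesins in this fit, but 0.051 for mitotic and -0.0028 for cargo kinesins in the offset fit, and 0.13 and 0.072 without knockdown-labelled replicate 1. Without knockdown-labelled replicate 3 they were 0.026 for mitotic and 0.030 for cargo kinesins, and without WT-labelled replicate 3 they were 0.038 and 0.085. The difference between the lists was not tested. The lower one, KIFC2, a minus-end-directed kinesin, had 45.3, 41.1 and 37.9 CPM in the libraries labelled knockdown, against 50.6, 46.1 and 50.3 CPM in those labelled WT (log2 fold change -0.25 ± 0.08 SE, adjusted p = 0.0305, edgeR). The groups did not overlap, but only by less than 1 CPM. This call was lost without knockdown-labelled replicate 2 or 3 (adjusted p = 0.107 and 0.126, edgeR), without WT-labelled replicate 1, 2 or 3 (0.0834, 0.0501 and 0.119), with DESeq2 (0.0516) and in the offset fit (-0.12, adjusted p = 0.0965). KIFC2 shares 791 exonic bases with FOXH1 on the opposite strand, which averaged 1.24 CPM in the libraries labelled knockdown and 0.915 CPM in those labelled WT.

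KIF5B had 283, 297 and 329 CPM in the libraries labelled knockdown, against 282, 285 and 283 CPM in those labelled WT. The groups overlapped and the log2 fold change was 0.10 (95% interval -0.03 to 0.22). KIF5B made up 89.2 ± 0.755% of KIF5A, KIF5B and KIF5C TPM in the libraries labelled knockdown and 88.6 ± 0.909% in those labelled WT. KIF3B, a subunit of the kinesin-2 that runs in cilia, had 138, 136 and 150.1 CPM in the libraries labelled knockdown, against 130.0, 133 and 121 CPM in those labelled WT; the groups did not overlap, but its log2 fold change of 0.14 was not called (adjusted p = 0.110, edgeR). KIF13A, an endosome motor, had a log2 fold change of -0.12 (adjusted p = 0.204) that was -0.22 in the offset fit (adjusted p = 0.00019). Summed cargo kinesin levels were 489 ± 33.5 TPM in the libraries labelled knockdown and 457 ± 19.0 TPM in those labelled WT. Without knockdown-labelled replicate 1 there were 5 called cargo kinesins (4 higher, 1 lower), KIF5B, KIF3B, KIF3A and KIF1B joining KIFC2. In that fit 34.3% of all tested genes were called. Without knockdown-labelled replicate 2 or 3 or WT-labelled replicate 2 or 3 there were 0, where 12.8%, 16.6%, 12.7% and 13% of all tested genes were called. KIF16B, the only cargo kinesin called without WT-labelled replicate 1, was higher there (log2 fold change 0.25, adjusted p = 0.0396, edgeR). That fit called 21.7% of all tested genes.

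The motor with the widest difference was KIF21B, a kinesin known from neurons and immune cells that limits microtubule growth. It was scarce, with 4.25, 4.07 and 3.74 CPM in the libraries labelled knockdown, against 2.58, 1.74 and 1.71 CPM in those labelled WT. The 3 knockdown-labelled libraries lay above all WT-labelled ones, 1.97-fold on average (log2 fold change 0.98 ± 0.20 SE, adjusted p = 0.00203, edgeR; 0.94 in the offset fit, adjusted p = 0.000601). It was the sole call among 8 tested of 12 other kinesins, 12.5% called against 23.3% of all tested genes. The KIF21B call was kept without each library in turn. Its paralog KIF21A was far more abundant, at 45.7 ± 5.85 TPM in the libraries labelled knockdown and 38.4 ± 2.11 TPM in those labelled WT, with a log2 fold change of 0.20 (adjusted p = 0.0585). KIF7, a regulator of Hedgehog signalling at the cilium tip, had a log2 fold change of 0.12 (adjusted p = 0.367), and KIF24, a depolymerase at the mother centriole, one of 0.35 (adjusted p = 0.0543). KIF24 passed in the offset fit (0.32, adjusted p = 0.0232), where the orphan kinesin KIF26B was lower (-0.30, adjusted p = 0.0333). Without knockdown-labelled replicate 1 there were 3 called other kinesins and without WT-labelled replicate 1 there were 2, all higher. In these fits 34.3% and 21.7% of all tested genes were called.

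**Figure D4:**
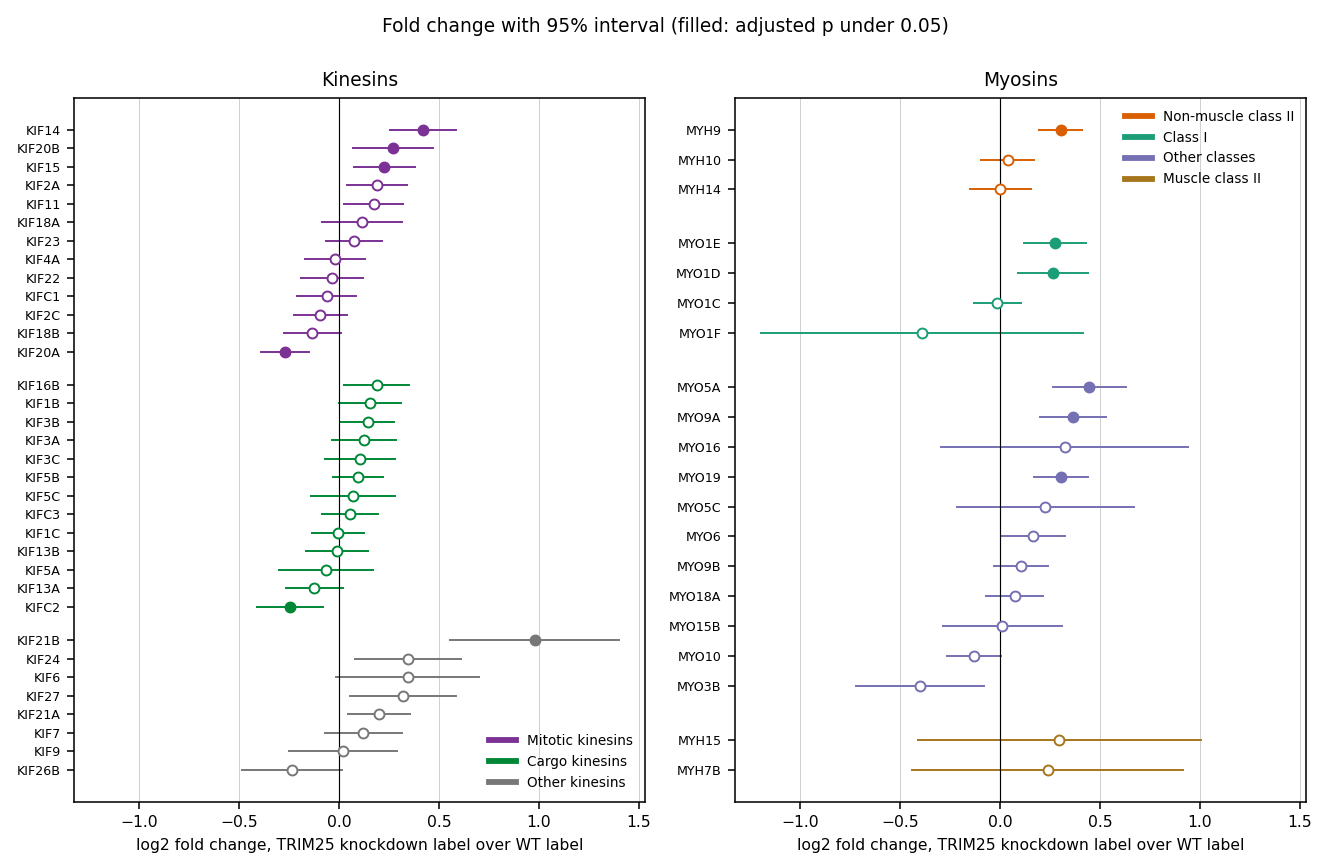
Log2 fold change, libraries labelled TRIM25 knockdown over those labelled WT, with its 95% interval, for the tested kinesins (left) and myosins (right) described here, grouped by role or class; filled points had an adjusted p under 0.05. Mitotic kinesins run from -0.27 to 0.42 and cargo kinesins from -0.25 to 0.19, KIF21B lies at 0.98, and the called myosins shown are all positive.

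Of the 40 myosins 21 were tested; in the libraries labelled knockdown 7 were higher and 0 lower, 33.3% called against 23.3% of all tested genes, with a median log2 fold change of 0.23. DESeq2 and limma-voom also called 0 lower, where they called 1175 and 1581 of all tested genes lower. The offset fit called 7 higher and 2 lower with a median of 0.15. It called 18% of all tested genes higher and 14.4% lower. At an unadjusted p under 0.05, edgeR put 1 of the 21 lower, against 2543 of all 14315 tested genes. That gene, MYO3B, was also called lower without knockdown-labelled replicate 3 and without the low-count filter. Summed myosin levels were 1065, 1077 and 1159 TPM in the libraries labelled knockdown, against 1000.1, 901 and 878 TPM in those labelled WT, without overlap. MYH9 is a large part of these sums. It had 485, 479 and 516 TPM in the libraries labelled knockdown, against 421, 372 and 365 TPM in those labelled WT. Without WT-labelled replicate 2 or replicate 3 there were 4 called myosins, where 12.7% and 13% of all tested genes were called.

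MYH9 had 1318, 1256 and 1326 CPM in the libraries labelled knockdown, against 1122, 1021 and 1014 CPM in those labelled WT. The groups were well apart, and MYH9 rose by 0.30 ± 0.05 SE on the log2 scale (adjusted p = 0.000443, edgeR; 0.29 in the offset fit, adjusted p = 2.66e-07), a call kept without each library in turn. The other non-muscle heavy chains were not called. MYH10, the heavy chain of myosin IIB, had 192, 207 and 214 CPM in the libraries labelled knockdown, against 213, 194 and 190.1 CPM in those labelled WT (log2 fold change 0.04, 95% interval -0.09 to 0.17), and MYH14, that of myosin IIC, had a log2 fold change of 0.00 (-0.15 to 0.15). The MYH9 share of the 3 heavy chains' TPM was 84.3, 83.2 and 83.4% in the libraries labelled knockdown, against 81.1, 80.8 and 80.7% in those labelled WT, without overlap. MYH9 made up 20.4 ± 0.648% of all motor TPM in the libraries labelled knockdown and 17.7 ± 0.572% in those labelled WT.

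Of the 8 class I myosins, single-headed motors that tie membranes to actin, 5 were tested and 3 were higher. The share called was 60%, against 23.3% of all tested genes. MYO1E, a long-tailed class I myosin of endocytic and adhesion sites, had 77.7, 78.4 and 83.4 CPM in the libraries labelled knockdown, against 72.7, 63.8 and 61.5 CPM in those labelled WT (log2 fold change 0.28 ± 0.07 SE, adjusted p = 0.0113, edgeR; lost without WT-labelled replicate 2 or 3, adjusted p = 0.0743 and 0.0761). MYO1D had 34.2, 30.6 and 35.9 CPM in the libraries labelled knockdown, against 30.0, 27.3 and 26.8 CPM in those labelled WT (0.26 ± 0.08 SE, adjusted p = 0.0300, edgeR), and its call was lost without knockdown-labelled replicate 3 (adjusted p = 0.128), WT-labelled replicate 2 or 3 (0.121 and 0.126) and with DESeq2 (0.0529). Both were also called in the offset fit, MYO1E at 0.20 and MYO1D at 0.21. MYO1E shares 87 exonic bases with FAM81A on the opposite strand, whose log2 fold change was 0.20 (adjusted p = 0.452, edgeR). For MYO1C, the most abundant class I myosin, the log2 fold change was -0.01 (95% interval -0.13 to 0.10), and MYO1F, largely a blood cell gene, had at most 1.38 CPM in any library (-0.39, -1.20 to 0.42).

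Of 17 genes in the other myosin classes 11 were tested and 3 were higher, 27.3% called against 23.3% of all tested genes. MYO5A, the dimeric carrier of vesicles and melanosomes, had 225, 259 and 284 CPM in the libraries labelled knockdown, against 214, 185 and 166 CPM in those labelled WT. The groups did not overlap, and MYO5A rose by 0.45 ± 0.09 SE on the log2 scale (adjusted p = 0.00139, edgeR; 0.30 in the offset fit, adjusted p = 1.14e-05). MYO9A, a myosin with a GTPase-activating domain, had 69.6, 75.3 and 83.7 CPM in the libraries labelled knockdown, against 63.8, 59.5 and 54.9 CPM in those labelled WT (0.36 ± 0.08 SE, adjusted p = 0.00300, edgeR; 0.20 in the offset fit). MYO19, which sits on mitochondria, had 83.9, 80.4 and 82.7 CPM in the libraries labelled knockdown, against 65.0, 70.4 and 64.7 CPM in those labelled WT (0.31 ± 0.06 SE, adjusted p = 0.0026, edgeR; 0.35 in the offset fit). All 3 were kept without each library in turn. MYO19 shares 1045 and 582 exonic bases with ZNHIT3 and PIGW on the opposite strand, whose log2 fold changes were -0.01 and 0.11. MYO9A shares 160 with SENP8 on the opposite strand, whose log2 fold change was 0.32 (adjusted p = 0.117, edgeR).

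MYO10, the filopodial myosin, had 170.3, 173 and 187 CPM in the libraries labelled knockdown, against 209, 191 and 181 CPM in those labelled WT; its log2 fold change of -0.13 (adjusted p = 0.160, edgeR) was -0.20 in the offset fit (adjusted p = 0.000239). MYO3B was the other myosin lower in the offset fit (-0.48, adjusted p = 0.00589; -0.40 without offsets, adjusted p = 0.0658). Without knockdown-labelled replicate 3 its adjusted p was 0.0486 (edgeR), and without the low-count filter 0.0276. For MYO9B, the paralog of MYO9A, the log2 fold change was 0.11 (95% interval -0.03 to 0.24) and for MYO18A 0.07 (-0.07 to 0.22). MYO18A shares 1394 exonic bases with TIAF1 on the same strand.

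**Figure D5:**
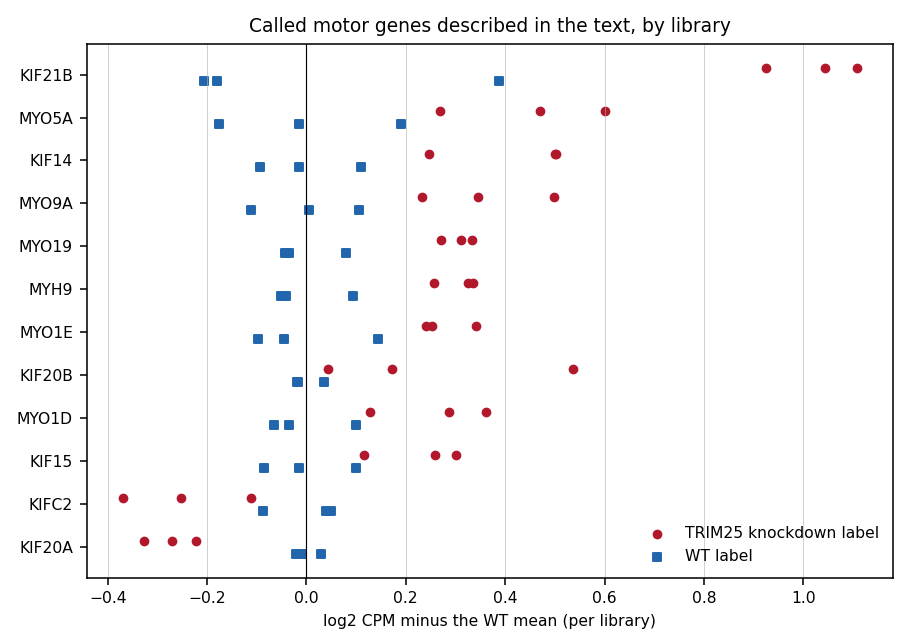
Log2 CPM of 12 of the 13 called motors in each library, as the difference from the mean of the libraries labelled WT, for the 3 libraries labelled TRIM25 knockdown (circles) and the 3 labelled WT (squares). For each gene the groups do not overlap; KIF21B lies farthest out, and for KIF20B knockdown-labelled replicate 3, at 96.7 CPM, lies apart from the other 2.

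The remaining 27 motors, 19 myosins and 8 kinesins, were not tested, and none had more than 12 counts in any library. Of the 12 muscle-type class II heavy chains 10 were among them, including the smooth muscle gene MYH11 with 0 to 2 counts, and the tested MYH15 and MYH7B had at most 1.29 and 1.24 CPM. MYH13, MYH2, KIF26A, KIF25 and KIF2B had 0 counts in all 6 libraries, which allows up to 0.183 to 0.264 CPM per library at 3 counts, for counting error only. KIF17 and KIF1A, kinesins best known from neurons, had at most 11 and 3 counts.

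Of 86 tested partner genes, which work with the motors, 11 were higher and 21 lower, 37.2% called against 23.3% of all tested genes (12.2% higher, 11% lower), with a median log2 fold change of -0.04. Without knockdown-labelled replicate 2 or 3 or WT-labelled replicate 2 or 3 the count of 32 fell to 13, 19, 13 and 15, where 12.8%, 16.6%, 12.7% and 13% of all tested genes were called. Partner genes had a median length of 3990 bp, shorter than the 6450 bp of the motors.

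Of 29 tested myosin partners 5 were higher and 9 lower, 48.3% called against 23.3% of all tested genes. S100A4, a calcium-binding protein that binds myosin IIA, had 57.7, 50.6 and 59.4 CPM in the libraries labelled knockdown, against 80.6, 89.4 and 90.7 CPM in those labelled WT (log2 fold change -0.63 ± 0.07 SE, adjusted p = 1.34e-05, edgeR). CDC42BPA, the kinase MRCK alpha, which acts on myosin II, rose by 0.40 on the log2 scale (adjusted p = 0.000916, edgeR). PPP1R12A, the targeting subunit of myosin phosphatase, rose by 0.39 (adjusted p = 0.000381, edgeR). MYLK, myosin light chain kinase, fell by 0.39 on the log2 scale (adjusted p = 0.00621, edgeR), a call lost without knockdown-labelled replicate 2 (adjusted p = 0.0505). The myosin light chains of the list were singled out after their values were seen: MYL6, MYL12A and MYL12B were lower, MYL6B (-0.13, adjusted p = 0.211) and MYL5 (0.00082) were not called, and MYL9 was not tested. MYL6 averaged 469 ± 37.0 CPM in the libraries labelled knockdown and 601 ± 16.9 CPM in those labelled WT (SD, n = 3 each; -0.36, adjusted p = 0.000338, edgeR), and MYL12B averaged 211 ± 6.94 CPM in the libraries labelled knockdown and 256 ± 11.04 CPM in those labelled WT (-0.28, adjusted p = 0.00171). MYL12A fell by 0.20 on the log2 scale (adjusted p = 0.0214, edgeR), a call lost without knockdown-labelled replicate 3 (0.0765) or WT-labelled replicate 2 or 3 (0.0832 and 0.113). MYL6 is 708 bp long and MYH9 7554 bp. MYL6 stood at -0.36 without offsets and -0.21 in the offset fit, and MYH9 at 0.30 and 0.29, all called. The part of gene length in these values was not tested. Summed over the list, myosin partners stood at 5525 ± 42.2 TPM in the libraries labelled knockdown and 6280 ± 44.9 TPM in those labelled WT.

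Of 17 tested kinesin partners 1 was higher and 3 lower, 23.5% called, close to the 23.3% of all tested genes. MAPK8IP2, a JNK scaffold that binds kinesin-1, had 13.3, 11.3 and 13.0 CPM in the libraries labelled knockdown, against 17.5, 17.4 and 18.5 CPM in those labelled WT (log2 fold change -0.50 ± 0.10 SE, adjusted p = 0.0013, edgeR), and was kept without each library in turn. Its relative MAPK8IP1 fell by 0.43 and the kinesin-1 adaptor FEZ1 fell by 0.21 on the log2 scale, calls that were lost in each leave-one-out fit except that without knockdown-labelled replicate 1, with adjusted p up to 0.162 and 0.191 (edgeR). STARD9, itself a kinesin of the centrosome, rose by 0.31, a call lost without knockdown-labelled replicate 2 or 3 (0.0959 and 0.180) or WT-labelled replicate 2 or 3 (0.153 and 0.210).

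Of 25 tested dynein and dynactin genes, whose complex moves towards microtubule minus ends, 3 were higher and 6 lower. The share called was 36%, against 23.3% of all tested genes. The light chain DYNLRB1 had 192, 183 and 174 CPM in the libraries labelled knockdown, against 210.5, 220.4 and 223 CPM in those labelled WT (log2 fold change -0.25 ± 0.06 SE, adjusted p = 0.0049, edgeR), and was kept without each library in turn. The ciliary heavy chain DYNC2H1 rose by 0.66 on the log2 scale, a call lost without knockdown-labelled replicate 3 (0.0700) or WT-labelled replicate 2 (0.0519). The cytoplasmic heavy chain DYNC1H1 rose by 0.27, a call lost without knockdown-labelled replicate 2 or 3 (0.0886 and 0.117) or WT-labelled replicate 2 or 3 (0.150 and 0.154). The dynactin subunit DCTN3 fell by 0.28 on the log2 scale, a call lost without knockdown-labelled replicate 3 (0.0682) or WT-labelled replicate 2 or 3 (0.0850 and 0.0535). Among spindle partners, the kinetochore scaffold KNL1 rose by 0.31, a call lost without knockdown-labelled replicate 2 or 3 (0.0552 and 0.0615) or WT-labelled replicate 2 (0.0785). INCENP, the scaffold of the passenger complex, rose by 0.22, a call lost without knockdown-labelled replicate 2 (0.0643) or WT-labelled replicate 2 or 3 (0.0590 and 0.0786). PSRC1, a spindle protein, fell by 0.28 on the log2 scale, a call lost without knockdown-labelled replicate 2 or 3 (0.109 and 0.0850) or WT-labelled replicate 2 or 3 (0.103 and 0.0838).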

How the data were processed

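RNA-seq reads of 6 LN229 libraries were trimmed with Trim Galore, checked with FastQC and MultiQC and aligned with HISAT2 to hg19, per the submitters' processing notes; per the labels' protocols the library kit was Illumina's for stranded total RNA. The program that counted reads, whether it used strand, its gene models and all versions: not given in the sources used here. The authors deposited per gene raw counts, FPKM (scaled to gene length and library size) and TPM. Counts were tested; deposited FPKM served only to recover the authors' gene lengths, which came out whole within 0.001 bp for all 21754 genes with a count; deposited TPM gave levels per length. Counts were fitted with edgeR 4.0.16 (R 4.3.3; TMM, filterByExpr by group, quasi-likelihood test, group as the only term, Benjamini-Hochberg over 14315 genes). CPM are counts per 1000000 of a library's counts over the tested genes, after scaling by its TMM factor. The fit was tested on simulated data. Alternatives were DESeq2 1.42.0, limma 3.58.1 (voom), DESeq2 size factors in edgeR, no low-count filter, a replicate block, offsets from natural splines with 5 degrees of freedom on length and GC content, and each library left out in turn. GC content and shared exons came from GENCODE v29, read by symbol; promoters came from RefSeq. A count of 0 was given an upper limit of 3 counts. Libraries of a label differed by more than counting noise.

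The motor genes and all lists were chosen with earlier results of these data known. Named genes are every called motor apart from 1 that is counted but not reported here, TRIM25, the 3 most abundant uncalled tested genes of each motor class and up to 4 called genes with the largest change in each partner list; KIF11, MYO3B, KIF26B, MYH15 and other motors named for overlap, 0 counts or a changed call, and the myosin light chains, were added after their values were seen.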

Additional observations from a re-analysis of the deposited data

How the results depend on the processing

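TRIM25 was called higher under every alternative run. With DESeq2 size factors or limma-voom no count of called genes below moved by over 1.5 times. Same-numbered libraries did not deviate together (correlations of deviations from the group means -0.191, 0.00821 and -0.217 for numbers 1, 2 and 3), no library correlated best with its own number, and the labels do not say that a number marks a shared culture or day. With the replicate block the calls were 1891 of all genes (3330 without it), 7 motors (13), 2 mitotic kinesins (4), 0 cargo kinesins (1), 4 myosins (7), 13 partner genes (32) and 1 proliferation marker (4). Calls lost with the block included KIF15 (adjusted p = 0.108, edgeR), KIF20B (0.0892), KIFC2 (0.0827), MYO1E (0.0508) and MYO1D (0.0824). DESeq2 called 0 cargo kinesins. Other kinesins had 1 call, against 3 without the low-count filter, 3 with length and GC offsets and 2 with the replicate block and offsets together. Leaving out each library in turn gave 1811 to 4916 called genes, 7 to 23 motors, 2 to 7 mitotic kinesins, 0 to 5 cargo kinesins, 1 to 3 other kinesins, 4 to 8 myosins, 13 to 41 partner genes and 0 to 4 proliferation markers. The median log2 fold change of mitotic kinesins was 0.026 to 0.13 over these fits. That of cargo kinesins was 0.030 (without knockdown-labelled replicate 3) to 0.087 with a library left out, and -0.0028 with offsets and -0.0034 with block and offsets, against 0.07, and that of myosins 0.15 and 0.16, against 0.23, and 0.12 to 0.24 with a library left out. The cause of these shifts was not tested. Of 390 values for the 30 named motors and alternatives, 340 kept their side of the threshold, 37 lost a call and 13 gained one. Of these values, 0 became a call in the opposite direction, but uncalled values could change sign. In the offset fit KIF5B went from 0.10 to -0.0028 and MYH10 from 0.04 to -0.04. Depth limits the scarce motors: KIF21B rests on under 5 CPM.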
